A study of Homo sapiens with 6 samples.

Results

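The 10 genes described here encode the 5 NF-kB subunits (NFKB1, NFKB2, REL, RELA and RELB), 3 inhibitors of kappa B (NFKBIA, NFKBIB and NFKBIE), and the feedback inhibitor A20 (TNFAIP3) with its partner TNIP1. They were chosen by symbol from a fixed list, and all 10 were found among the 59248 gene symbols of the deposited table and passed the expression filter that left 21055 genes for testing. Bulk RNA came from the human leukemic T-cell line Jurkat, called Jurkat KO-1 in the growth protocol of all 6 samples and kept in RPMI1640 with 10% serum. In 3 libraries the cells overexpressed PDCD1-28, a splicing isoform of the PD-1 receptor gene that keeps 28 bases from the start of intron 2, and in 3 they carried the vector. The labels name no stimulus, do not explain KO-1, and do not say that the numbered libraries came from separate cultures or clones, so the p-values rest on a spread among libraries that could be purely technical.

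NF-kB is a family of dimeric transcription factors that sits in the cytoplasm of resting cells, bound by inhibitors of kappa B. Signals from antigen and cytokine receptors activate the IKK kinase complex, which marks the inhibitors for destruction and lets dimers such as that of RELA with the processed NFKB1 product enter the nucleus; a slower route through MAP3K14 and CHUK processes the NFKB2 product, which pairs with RELB. Several of these genes are themselves NF-kB targets and give negative feedback: NFKBIA restores the inhibitor, and TNFAIP3 encodes a ubiquitin-editing enzyme that acts with TNIP1 to shut off signalling to IKK. In T cells the pathway runs from the T-cell receptor and CD28 through the kinase PRKCQ and the signalling proteins BCL10 and MALT1.

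The promoters of these genes are shown because most of them carry the site that the NF-kB proteins bind. RefSeq promoter entries (GRCh38.p14, 250 bases before to 50 after a start) matched 8 of the 10 symbols, with 14 entries; RELB and NFKBIE had none. A strict kappa B type motif (GGG, then any 2 bases, then TTTCC), searched on both strands, was found in 8 of the 14 entries, against 1.91% of all 35116 entries. By gene it was in 7 of the 8, against 2.33% of all 27305 genes with an entry. A looser form (GGG, any 5 bases, CC), which includes every match of the first, was in all 14 entries but also in 58.7% of all entries. In the following lines the strict match is in capitals within a stretch of at most 30 bases, 5′ to 3′ on the strand of the gene and before the start. The start is that of the entry and need not be the first of the gene. Where the capitals begin with GGAAA, the match is on the other strand.
NFKB1, chr4:102501300-102501329, plus strand: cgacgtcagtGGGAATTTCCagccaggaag
NFKB2, chr10:102394490-102394519, plus strand: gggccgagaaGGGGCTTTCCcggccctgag
NFKB2, chr10:102395674-102395703, plus strand, a later start: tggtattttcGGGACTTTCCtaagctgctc
REL, chr2:60881518-60881547, plus strand: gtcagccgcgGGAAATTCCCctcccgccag
NFKBIA, chr14:35404811-35404840, minus strand: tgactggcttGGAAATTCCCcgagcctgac
NFKBIB, chr19:38899931-38899960, plus strand: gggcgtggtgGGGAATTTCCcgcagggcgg
TNFAIP3, chr6:137867188-137867217, plus strand: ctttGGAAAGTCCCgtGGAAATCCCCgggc
TNIP1, chr5:151081057-151081086, minus strand: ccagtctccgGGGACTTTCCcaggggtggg
The matches of NFKB1 and REL began 49 and 46 bases before the start. TNFAIP3 carried a pair, beginning 67 and 55 bases before it. Neither of the RELA entries held the strict motif. The most upstream entries of NFKB2 (chr10:102393860-102394159) and NFKBIB (chr19:38899416-38899715) also lacked it. All printed matches of these genes thus belong to later starts. The printed TNIP1 stretch lies inside the span of its gene, which begins at 151093577 on the minus strand. A match describes the letters of a window and is not evidence of binding in these cells.

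The libraries held between 59911578 and 84220970 estimated counts. PDCD1 was at 14.6, 14.2 and 12.6 CPM in the overexpression libraries and at 0.241, 0.223 and 0.222 CPM in the vector libraries, in the direction of the labels. CPM here is the standard depth-scaled level, computed from estimated counts with TMM factors. Vector replicate 2 lay apart from the other vector libraries on the second principal component, which held 12.1% of the variance. All 13 T-cell and T-ALL markers averaged at least 1 CPM, against 0 of 7 myeloid and 0 of 6 epithelial and kidney line markers. In the remaining lists, 1 of 6 B cell and 1 of 5 natural killer markers did so. Of the 13, 11 were called in either direction, beside 46.1% of all genes tested. The summed level of the 13 was lower in overexpression, at 3365 to 3419 CPM against 3704 to 3950 CPM in vector. This sum includes CD28, which had a mean of 218 CPM in vector and 1.90 CPM in overexpression. Summed myeloid markers were at 1.05 to 1.24 and 1.26 to 1.96 CPM, and epithelial and kidney line markers, with EPCAM at 0, at 0.785 to 1.596 and 0.370 to 0.517 CPM. Summed B cell markers were at 28.9 to 37.0 CPM in overexpression and 41.8 to 60.1 CPM in vector, with CD79A the only one averaging 1 CPM, and natural killer markers at 1.81 to 2.695 and 0.930 to 2.02 CPM, with NCR1 at 0. The part of these markers in the results was not tested. In bulk RNA, fewer cells with a transcript and less of it per cell cannot be told apart.

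Of the 10 genes, NFKB1, NFKBIE and TNFAIP3 fell and TNIP1 rose in cells overexpressing the isoform (edgeR quasi-likelihood F test, Benjamini-Hochberg adjusted p under 0.05). RELA, RELB, REL, NFKB2, NFKBIA and NFKBIB did not pass. The share called, 4 of 10, lies beside 46.1% of all 21055 genes tested and 59.3% of the 8925 genes whose mean CPM lay within the range of the 10 (6.30 to 113 CPM). The 3 falls lie beside 23.4% of all genes called lower, and the 1 rise beside 22.6% called higher; among genes of like abundance these shares were 31.3% and 28.0%. CPM of the groups did not overlap for 5 of the 10, beside 58.7% of all genes tested and 69.4% of those of like abundance. The median size of the log2 change was 0.18 over the 10 genes, 0.44 over all genes tested and 0.32 over those of like abundance. The shares are thus near or below the background, and the group as a whole does not stand out from it in these counts.

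Among the subunits, NFKB1 showed the largest fitted change. NFKB1 encodes a precursor that is processed to the DNA-binding p50 subunit and also retains inhibitor-like repeats (chromosome 4, 102501329 to 102617302, plus strand; GENCODE 29 on GRCh38, as for all gene positions here). Its level was 55.5, 55.2 and 53.0 CPM in overexpression and 81.7, 78.4 and 81.5 CPM in vector. The groups were far apart and the replicates close together, with a coefficient of variation of 2.51% and 2.26%. NFKB1 was 1.48-fold lower in overexpression (log2 fold change -0.56 ± 0.05, SE; edgeR adjusted p = 5.62e-05), and 40.9% of genes tested changed by at least as much in either direction.

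NFKB2 encodes the precursor that is processed to p52 in the slower, non-canonical route (chromosome 10, 102394110 to 102402529, plus strand). It was at 57.3, 53.4 and 56.5 CPM in overexpression and 53.6, 37.7 and 47.5 CPM in vector. Vector replicate 1 reached into the overexpression range and vector replicate 2 was the lowest library. The log2 fold change was 0.27 (95% interval 0.0013 to 0.54), with an unadjusted p = 0.0491 and an edgeR adjusted p = 0.0922. The spread between vector libraries was 17.4% of their mean, against 3.75% in overexpression. Without vector replicate 2 the fitted change was 0.13, and without vector replicate 1 it was 0.38 and passed (edgeR adjusted p = 0.0247).

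RELA, the main transactivating subunit, differed little between groups (chromosome 11, 65653596 to 65663094, minus strand). In overexpression it was at 106, 114 and 117 CPM. The vector libraries were at 110.2, 115 and 114 CPM, inside the overexpression range. Its log2 fold change was -0.011 with a 95% interval from -0.13 to 0.11. The interval leaves room for a small RELA change in either direction.

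REL encodes c-Rel, a subunit used by lymphocytes (chromosome 2, 60881521 to 60931610, plus strand). Its level was 46.4, 50.1 and 45.3 CPM in overexpression and 53.1, 47.9 and 58.2 CPM in vector. Vector replicate 2 fell within the overexpression range and the other vector libraries above it. The log2 fold change was -0.17 (95% interval -0.35 to 0.019; edgeR adjusted p = 0.126). Without vector replicate 2 it was -0.25 and passed (edgeR adjusted p = 0.0092), and without vector replicate 3 it was -0.10 (edgeR adjusted p = 0.331). With the trend on GC content and length removed it was -0.067 (edgeR adjusted p = 0.384). In GENCODE 29, 43.3% of the exon bases of REL are also exons of AC010733.2, a noncoding RNA on the same strand. The symbol AC010733.2 was not found in the deposited table, and reads from this RNA cannot be told apart from those of REL.

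RELB, the partner of p52 in the non-canonical route, was the least abundant (chromosome 19, 45001430 to 45038198, plus strand). It was at 5.78, 5.87 and 7.30 CPM in overexpression and 7.31, 5.42 and 6.12 CPM in vector. These values came from 375 to 467 estimated counts per library. The groups overlapped fully, and the interval of the log2 fold change of 0.0084 ran from -0.39 to 0.40, the widest interval among the subunits.

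**Figure D1:**
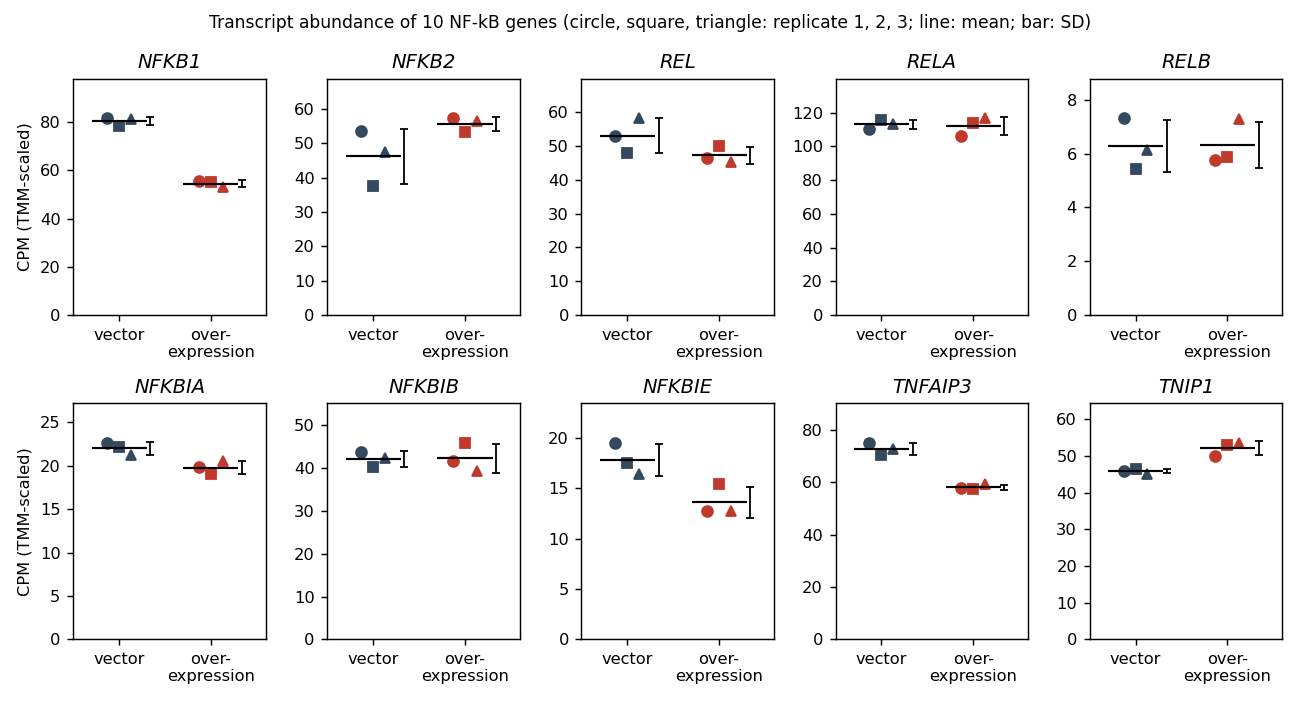
CPM (vertical axis, from 0) of each of the 10 genes in the 3 vector and 3 overexpression libraries; points are libraries, lines means and bars SD. NFKB1, NFKBIA, NFKBIE and TNFAIP3 have all overexpression points under all vector points, TNIP1 has them above, and the other 5 genes overlap.

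The inhibitors of kappa B hold dimers in the cytoplasm, and only NFKBIE passed the test among the 3. NFKBIE, which encodes the epsilon form (chromosome 6, 44258166 to 44265788, minus strand), was at 12.7, 15.4 and 12.7 CPM in overexpression and 19.5, 17.5 and 16.4 CPM in vector. All overexpression libraries lay below all vector libraries, with replicate 2 of overexpression nearest to the vector range. NFKBIE was 1.31-fold lower (log2 fold change -0.39 ± 0.12, SE; edgeR adjusted p = 0.0278). The call was lost without overexpression replicate 1, overexpression replicate 3 or vector replicate 1, with edgeR adjusted p of 0.0968, 0.0957 and 0.0913.

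NFKBIA encodes the alpha form, the classical feedback inhibitor that NF-kB itself induces (chromosome 14, 35401511 to 35404749, minus strand). It was at 19.9, 19.0 and 20.5 CPM in overexpression and 22.7, 22.2 and 21.2 CPM in vector. The groups did not overlap, and the test was not passed: the log2 fold change was -0.15 (95% interval -0.33 to 0.022; edgeR adjusted p = 0.136). With the trend on GC content and length removed, the change was -0.20 and passed (edgeR adjusted p = 0.0382).

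NFKBIB, the gene of the beta form, was at 41.6, 46.0 and 39.3 CPM in overexpression and 43.8, 40.3 and 42.4 CPM in vector (chromosome 19, 38899700 to 38908893, plus strand). The overexpression libraries spanned the whole vector range. The log2 fold change was 0.0049, with a 95% interval from -0.16 to 0.17. NFKBIB shares 40 exon bases, 1.72% of its own, with SIRT2 on the opposite strand, and the strand setting of the counting is not given in the sources used here.

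The A20 pair moved in opposite directions. TNFAIP3, the gene of A20 (chromosome 6, 137867188 to 137883312, plus strand), was at 57.8, 57.3 and 59.1 CPM in overexpression and 75.1, 70.4 and 72.6 CPM in vector. The groups were well separated, as for NFKB1. TNFAIP3 was 1.25-fold lower (log2 fold change -0.32 ± 0.05, SE; edgeR adjusted p = 0.00098). It shares 95 exon bases, 1.88% of its own, with AL357060.1 on the opposite strand.

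TNIP1 encodes the adaptor ABIN1, which brings A20 to ubiquitinated targets (chromosome 5, 151029945 to 151093577, minus strand). It was at 49.9, 53.0 and 53.6 CPM in overexpression and 46.0, 46.3 and 45.1 CPM in vector. All overexpression libraries lay above all vector libraries. TNIP1 was 1.14-fold higher (log2 fold change 0.19 ± 0.05, SE; edgeR adjusted p = 0.0198). This call was lost without overexpression replicate 2 or 3 or vector replicate 1 or 3 (edgeR adjusted p from 0.0633 to 0.0773), with DESeq2 (adjusted p = 0.0612) and with no filter (edgeR adjusted p = 0.0601).

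**Figure D2:**
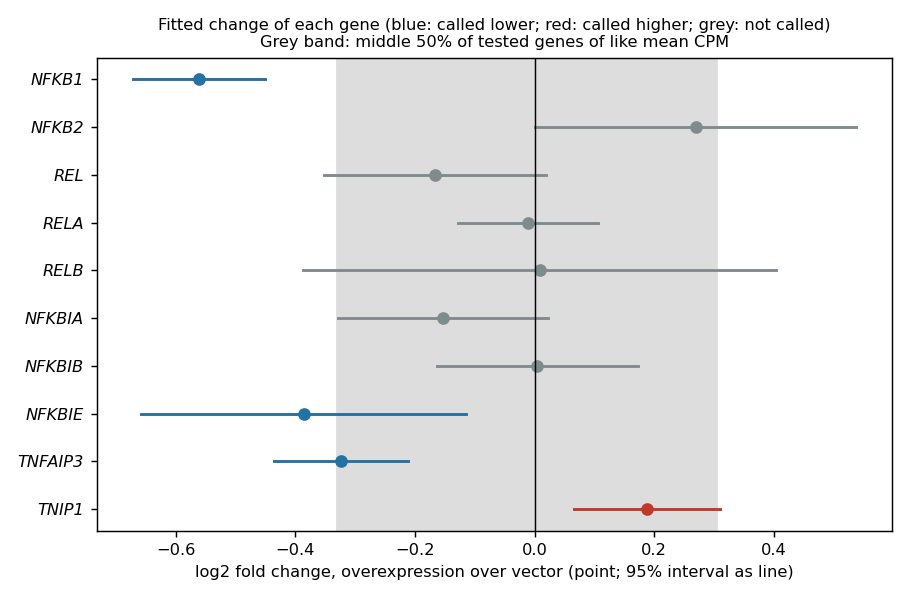
Log2 fold change of each gene (point) with its 95% interval (line); the grey band spans the first to the third quartile of tested genes of like mean CPM, from -0.33 to 0.30. NFKB1 and NFKBIE lie to the left of the band, and the intervals of RELA, RELB, REL, NFKBIA and NFKBIB include 0.

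Levels between genes were compared as CPM per kilobase of merged exons. RELA was the most abundant of the 10 transcripts in both groups, at 20.7 ± 0.482 CPM per kilobase in vector and 20.5 ± 0.977 in overexpression (SD, n = 3), and RELB the least, at 2.07 ± 0.316 and 2.08 ± 0.282. The highest vector level was 9.99 times the lowest. In vector the order was RELA, NFKBIB, TNFAIP3, NFKB1, NFKB2, NFKBIA, TNIP1, NFKBIE, REL and RELB. Neighbours in this order did not overlap between libraries, except NFKB2 and NFKBIA. In overexpression NFKB2 followed RELA and NFKBIB, at 12.4 ± 0.466 CPM per kilobase, ahead of TNFAIP3, TNIP1 and then NFKB1 at 8.72 ± 0.219. There RELA overlapped with NFKBIB, TNIP1 with NFKB1, and NFKB1 with NFKBIA. The order depends on which exons count as the length: with the longest transcript of each gene, NFKB1 followed RELA directly in vector and NFKB2 stood below NFKBIA, while RELA stayed highest and REL and RELB lowest. In overexpression, TNIP1 then ranked 3 in place of 5, and TNFAIP3 ranked 7 in place of 4.

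The make-up of the subunit transcripts differed between groups mainly in the NFKB1 and NFKB2 precursors. NFKB1 held 19.1%, 18.7% and 17.5% of the summed subunit level per length in overexpression and 25.3%, 26.4% and 25.6% in vector. NFKB2 held 27.5%, 25.2% and 26.1% in overexpression and 23.2%, 17.7% and 20.8% in vector. Neither share overlapped between groups, and those of RELA, REL and RELB did. For single genes, CPM did not overlap for 58.7% of all genes tested. Shares within a library depend on each other, so a lower NFKB1 level raises the other shares. NFKB2 itself overlapped between groups in CPM and was not called. As a ratio within each library, which needs no scaling between libraries, NFKB2 to NFKB1 was 1.44, 1.35 and 1.49 in the overexpression libraries. In the vector libraries it was 0.916, 0.670 and 0.814, below 1 in every one. The ratio of RELA to NFKB1 was 2.36 ± 0.164 in overexpression and 1.61 ± 0.071 in vector (SD, n = 3). These are descriptions with no test. RELA itself differed little, so this ratio moved with its denominator.

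The summed level of the 3 inhibitors of kappa B relative to the 5 subunits overlapped between groups, at 0.672 ± 0.042 in overexpression and 0.687 ± 0.024 in vector (SD, n = 3). By the longest transcript these means were 0.518 and 0.528, also overlapping. Within the inhibitors, NFKBIE held 15.8%, 17.7% and 16.2% of the summed level in overexpression and 21.0%, 20.3% and 19.0% in vector. NFKBIB, the most abundant of the 3, held 57.1% ± 1.57 and 52.9% ± 1.35, while the share of NFKBIA overlapped at 26.3% ± 2.33 and 27.1% ± 0.782. NFKBIB itself differed little (log2 fold change 0.0049), and its share depends on the levels of the others. For the A20 pair, the ratio of TNIP1 to TNFAIP3 was 0.753, 0.807 and 0.790 in overexpression and 0.534, 0.573 and 0.542 in vector.

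**Figure D3:**
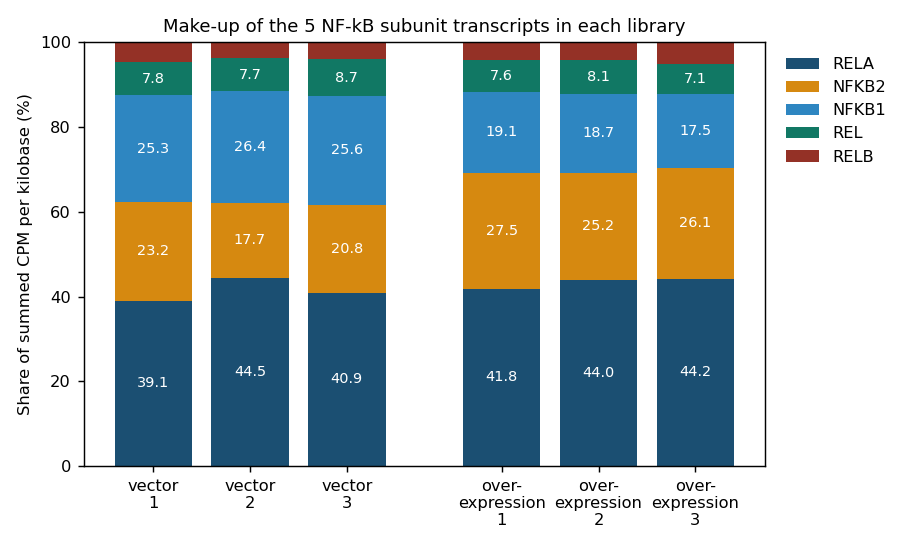
Share (%, vertical axis) of each subunit gene in the summed CPM per kilobase of the 5 subunits, in 1 bar per library. NFKB1 shrinks from 25.3% to 26.4% in the vector libraries to 17.5% to 19.1% in the overexpression libraries, NFKB2 is larger in overexpression, and RELA holds 39.1% to 44.5% in all 6.

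Each gene was set beside the 20 tested protein-coding genes on either side of it on its chromosome. NFKB1 was lower than most of its surroundings: 3 of its 40 neighbours changed by as much or more in the downward direction, and their median log2 change was 0.063. NFKBIE was also below the first quartile of its neighbours, whose median was 0.15, with 9 of 40 at or below it, but it lay inside the quartiles when 40 genes on either side were taken (22 of 80 at or below it). TNFAIP3 lay in surroundings that were lower as well. Of its 40 neighbours, on chromosome 6 from 131573966 to 143863812, 18 were called lower and 6 higher, beside 23.4% and 22.6% of all genes tested. Their median log2 change was -0.44, and 22 lay at or below TNFAIP3. The median was -0.23 with 40 genes on either side and -0.50 with 10. REL had a neighbour median of -0.31 on chromosome 2, with 21 of 40 called lower and 7 higher, beside the same shares of all genes tested. TNIP1 and NFKB2 stood above neighbour medians of -0.12 and -0.070, NFKB2 above the third quartile and TNIP1 within the quartiles. The part of the chromosomal surroundings in the change of any gene was not tested. In all, 4 of the 10 lay outside the quartiles of their neighbours, NFKB1, NFKB2, NFKBIA and NFKBIE. Without vector replicate 2 this number was 2. By definition about as many neighbours lie outside their quartiles as inside, so the count does not set the 10 genes apart as a group. With 40 genes on either side NFKB1 and NFKBIA remained outside, and with 10 on either side RELB joined the 4.

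**Figure D4:**
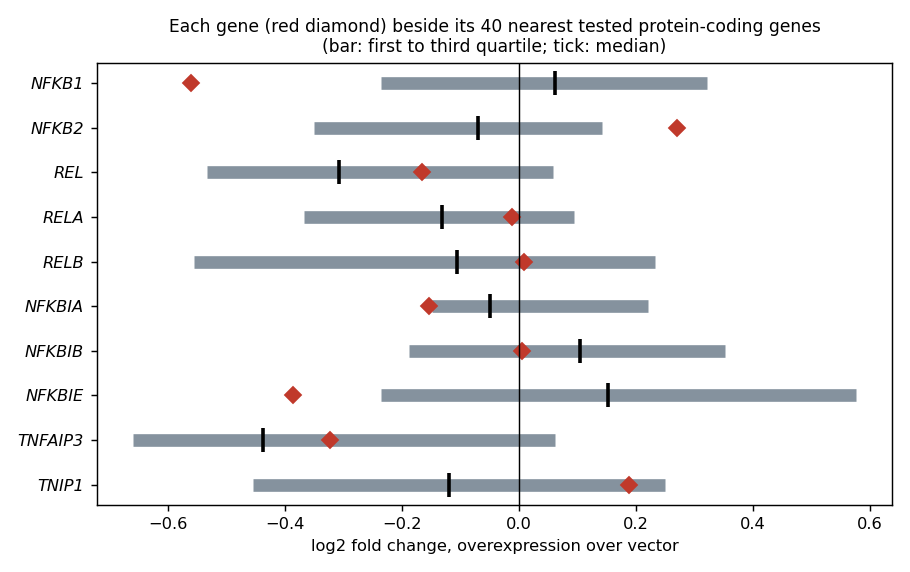
Log2 fold change of each gene (diamond) beside the first to the third quartile (bar) and median (tick) of its 40 tested protein-coding neighbours. NFKB1 lies far left of its bar, and TNFAIP3 lies inside a bar whose median is -0.44.

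The other genes of the pathway were read from lists by role. Of 60 tested, 10 rose and 23 fell, which is 55.0% called beside 46.1% of all genes tested and 59.3% of those with the abundance of the 10 genes. For each list that follows, the shares called over all genes tested were 22.6% higher and 23.4% lower, and 28.0% and 31.3% at that abundance. The 60 genes had a median log2 fold change of -0.14 beside 0.016 for all genes tested. At the antigen receptor end, 4 of 9 genes fell and 2 rose. The costimulatory receptor gene CD28 had the largest fall of the list, from 218 ± 47.9 to 1.90 ± 0.381 CPM (SD, n = 3). PRKCQ, a kinase that acts below the T-cell receptor, fell from 73.5 ± 15.5 to 40.2 ± 0.653 CPM (edgeR adjusted p = 0.0014). MALT1, a protease of this route, rose from 34.5 ± 3.32 to 47.3 ± 0.583 CPM, and its partner BCL10 was not called at a log2 fold change of 0.056. CASP8 fell as well, and CSNK1A1 rose by 0.16 on the log2 scale, a call lost without any 1 library other than vector replicate 2 (edgeR adjusted p from 0.0503 to 0.113). The CSNK1A1 call was also lost with DESeq2 (adjusted p = 0.0727) and with no filter (edgeR adjusted p = 0.0859).

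Of 10 IKK and TAK1 kinase genes, 2 fell and 1 rose. CHUK, the IKK alpha gene, fell from 99.98 ± 7.22 to 75.3 ± 2.20 CPM, and TAB2, an adaptor of TAK1, by 0.27 on the log2 scale. IKBKG, the gene of the regulatory subunit NEMO, rose from 30.1 ± 2.88 to 41.8 ± 1.15 CPM. IKBKB, the IKK beta gene, had a log2 fold change of 0.099 and was not called (edgeR adjusted p = 0.145), and MAP3K14, the kinase of the non-canonical route, was at 17.5 ± 2.01 CPM in vector and 16.8 ± 0.528 in overexpression. The 3 IKK subunit genes thus moved differently: CHUK lower, IKBKG higher and IKBKB uncalled.

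The ligase that targets phosphorylated inhibitors of kappa B was called lower in 4 of its 5 genes and higher in 0, beside 23.4% and 22.6% of all genes tested. FBXW11, a substrate receptor, fell from 79.2 ± 3.49 to 53.4 ± 1.16 CPM, SKP1 from 207 ± 13.5 to 145 ± 3.94 CPM and CUL1 from 93.6 ± 4.15 to 70.4 ± 3.53 CPM. RBX1 fell too, and BTRC, the other substrate receptor, was not called at a log2 fold change of 0.12. These genes also serve other substrates of the same ligase family.

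Among 9 TRAF, cIAP and RIPK1 adaptor genes, 3 fell and 1 rose. TRAF3, which keeps MAP3K14 low in the non-canonical route, fell from 182 ± 19.2 to 103 ± 1.59 CPM (edgeR adjusted p = 6.89e-05). TRAF2 fell from 60.2 ± 2.63 to 41.2 ± 2.64 CPM, and TRAF6 by 0.28 on the log2 scale, not called without vector replicate 1 (edgeR adjusted p = 0.05002). TRADD rose by 0.33 on the log2 scale, a call kept among the left-out libraries only without vector replicate 2 (edgeR adjusted p from 0.0592 to 0.154 without any of the others). BIRC2 and BIRC3, the cIAP genes, were not called.

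Among the linear ubiquitin ligase and deubiquitinase genes, 3 of 7 rose and 0 fell, beside 46.1% of all genes tested called in either direction. RBCK1, the HOIL-1 subunit of the linear ubiquitin ligase, rose from 66.4 ± 4.50 to 223 ± 5.78 CPM, 3.36-fold, and SHARPIN, another subunit, by 0.28 on the log2 scale (not called without overexpression replicate 3, edgeR adjusted p = 0.0555). RNF31, the catalytic subunit, was not called, at 45.3 ± 14.6 CPM in vector and 46.5 ± 8.06 in overexpression. OTUD7B, a deubiquitinase, rose from 16.1 ± 2.67 to 29.4 ± 1.37 CPM, and CYLD and OTULIN were not called. Of 4 tested partners of the A20 complex, 3 fell, beside 23.4% of all genes tested: TNIP2, a relative of TNIP1, from 45.9 ± 1.501 to 33.2 ± 0.882 CPM, ITCH by 0.27 and RNF11 by 0.22 on the log2 scale. The RNF11 call was lost without overexpression replicate 1 or 3 or vector replicate 1 or 3 (edgeR adjusted p from 0.0560 to 0.0950).

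Atypical inhibitors of kappa B, which act in the nucleus, were read beside the 3 classical ones. NFKBIZ rose from 0.916 ± 0.457 to 2.53 ± 0.332 CPM (edgeR adjusted p = 0.0108), and NFKBIL1, a related gene, from 29.9 ± 1.47 to 43.0 ± 3.75 CPM. NFKBID had a log2 fold change of 0.048 and was not called, and BCL3 was too low to test.

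Of 27 listed target genes of NF-kB, SOD2 was not found among the gene symbols of the deposited table. Of the rest, 16 were tested, 7 fell and 2, ICAM1 and NFKBIZ, rose. Beside these stand 23.4% of all genes tested called lower and 22.6% higher. The 56.25% called in either direction lies between the 46.1% of all genes tested and the 59.3% at the abundance of the 10 genes. Several of the 16, such as NFKBIZ, LTB and PLAU, lay below that abundance, so the 59.3% is not matched to this list. The median log2 fold change of the 16 was -0.63. CD83, an activation marker, fell from 59.9 ± 3.50 to 29.6 ± 1.53 CPM, and IER3, an early response gene, from 18.4 ± 1.597 to 8.03 ± 1.39 CPM. LTA, the lymphotoxin alpha gene, had 0, 8 and 8 estimated counts in overexpression and 351, 178 and 404 in vector, so its fall was large but its size is uncertain. LTB, CFLAR, IRF1 and CD69 also fell. ICAM1, the adhesion molecule gene, rose from 5.51 ± 1.74 to 11.5 ± 0.935 CPM, in the opposite direction to TNFAIP3 and NFKBIE. TNF, IL2, IL2RA, CXCL8, CCL3 and CCL4 were too low to test in both groups. The list was chosen with earlier results of these data known and holds genes driven by many other factors, so its count is a description.

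**Figure D5:**
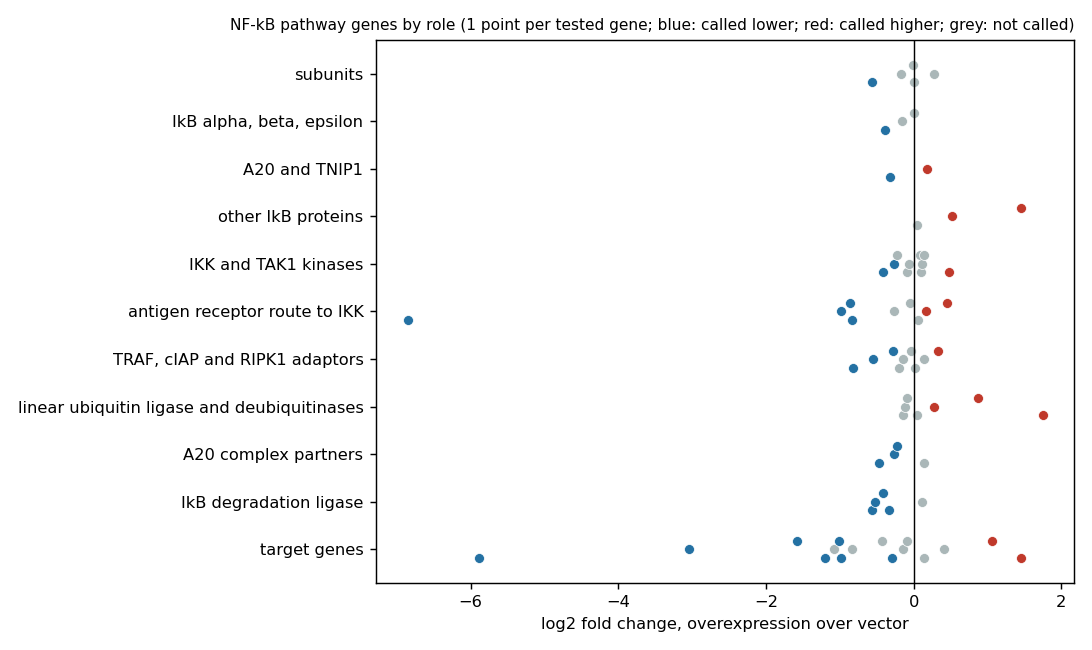
Log2 fold change (horizontal axis) of every tested gene of each list, 1 point per gene, with genes called lower in blue, higher in red and not called in grey. The subunits lie between -0.56 and 0.27, while CD28 and LTA lie at -6.85 and -5.89.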

How the data were processed

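Values deposited by the authors are expected counts (estimated counts), whole numbers for each symbol in each library, without depth scaling. The tools in the submitters' processing notes are DESeq2, StringTie, STAR 2.7.10a and fastp 0.23.2, with build hg38. The sources used here give neither an annotation release nor a strand setting. What 1 read pair adds to these values is not settled: 4 is more frequent than 3, but 1 is the most frequent value above 0, so no counting interval is given. Libraries were grouped by title. Genes kept by the default filter of edgeR 4.0.16 (R 4.3.3) were scaled by TMM. Group was the single factor of its quasi-likelihood F test, with Benjamini-Hochberg adjustment over all genes tested and a threshold of 0.05. Standard errors and 95% intervals came from the same statistic. The fit was also run on simulated counts with a single fixed dispersion. Those counts had no library set apart like vector replicate 2, so they do not show how the fit handles such a library. Lengths and positions came from GENCODE 29, which matched 40091 of the 59248 symbols. Alternatives were DESeq2 1.42.0, limma-voom (limma 3.58.1), other size factors and filters, a replicate block, removal of a GC and length trend, and each library left out; division of values by 4 was added after seeing the data. The 10 genes and all lists were chosen with earlier results of these data known. All 10 were named, and from every other list up to 3 risen and 3 fallen genes of smallest adjusted p, with up to 2 of highest mean where none was called; other names were added after their values were seen. No 2 replicates agreed within sampling noise, also if 1 read pair adds 4 (chi-square per degree of freedom of at least 2.47). The values of 1 gene of the antigen receptor list are not reported here, though the counts include it.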

Additional observations from a re-analysis of the deposited data

How the results depend on the processing

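NFKB1 and TNFAIP3 stayed lower and called under all 16 alternatives (log2 fold change -0.59 to -0.51 and -0.36 to -0.27), NFKBIE stayed lower under all and called under 13, and TNIP1 stayed higher under all and called under 9. The number of the 10 genes called higher was 0 with DESeq2 and with no filter, 2 with upper-quartile factors, where NFKB2 passed, and 2 with the GC and length trend removed together with the replicate block, in place of 1; the cause was not tested. With 1 library left out, 0 to 1 were called higher, 2 to 4 lower and 2 to 5 in all, with 2 in all without overexpression replicate 3. The 33 calls among other pathway genes became 29 to 43, with 43 without vector replicate 2. The sign of the smallest changes was not stable: RELA was at 0.037 with upper-quartile factors and 0.0039 under the stricter filter, and from -0.042 to 0.025 with a library left out. RELB was at -0.012 with DESeq2, -0.0012 with DESeq2-type size factors and -0.0027 with no filter, and from -0.11 to 0.12 with a library left out. NFKBIB was at -0.016, -0.0053 and -0.0080 under those settings, -0.0042 with the trend removed, -0.0053 with the trend removed and the replicate block, and from -0.059 to 0.053 with a library left out. The replicate numbers did not pair the libraries (correlations of same-numbered deviations 0.0052, 0.0013 and 0.023, and not every library correlated best with its own number). With the replicate block 4 of the 10 were called, NFKB2 in place of TNIP1 (edgeR adjusted p = 0.0455 and 0.0573), 31 of the other pathway genes, and 8690 of all genes in place of 9705. With the longest transcript as length, the highest vector level was 12.97 times the lowest in place of 9.99, while the NFKB1 share difference was -7.27 in place of -7.34 percentage points (-7.66 to -6.90 with a library left out). With 40 neighbours on either side, 2 genes in place of 4 lay outside the quartiles of their neighbours, with 10 on either side 5, and 2 to 5 with a library left out.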
